A study of Mus musculus with 8 samples.

Results

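The genes that mark the epithelial and the mesenchymal state of a cell were examined in mouse embryonic stem cells (ESCs) with and without Dax1. The 10 genes Cdh1, Epcam, Cdh2, Vim, Fn1, Snai1, Snai2, Zeb1, Zeb2 and Twist1 were chosen by name, matched by symbol to the Ensembl identifiers of the count tables, and all were found among the 52550 genes listed. The rule used no measured value, but the genes, like the gene lists below, were chosen with earlier results of these data known. All 10 passed the filter on low counts. Control ESCs and Dax1KO ESCs were compared in 2 media by mRNA sequencing (Illumina HiSeq), and each of the 4 groups had 2 libraries. In 2i/LIF, cells grew in N2B27 medium with 1 μM of the MEK inhibitor PD0325901, 3 μM of the GSK3 inhibitor CHIR99021 and 10 ng/ml of the cytokine LIF. In LIF/serum, they grew in DMEM with 15% fetal bovine serum and the same LIF concentration. All libraries are labelled passage 3, and all cells were kept on gelatin-coated plates without a feeder layer being described. Dax1 (Nr0b1) had been disrupted with CRISPR/Cas9 from a lentiviral vector around its start codon, and zeocin-resistant colonies were picked in 2i/LIF and later moved to LIF/serum. A single picked colony was carried into the functional experiments of the study. Whether it was also the one sequenced, the strain of the cells and the treatment of the control cells during selection are not given in the sources used here, and both Dax1KO groups are read as a single clone, whose other differences from control cells cannot be told apart from the loss of Dax1. Nothing in the labels says that the 2 libraries of a group came from separate cultures, and P values therefore measure only the spread between these libraries.

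Epithelial cells are held together by E-cadherin, which binds catenins and the actin cytoskeleton. In the epithelial-mesenchymal transition, transcription factors of the Snail, Zeb and Twist families bind E-box motifs and repress E-cadherin, while N-cadherin, vimentin and fibronectin rise. Mouse ESCs grow as compact colonies with E-cadherin at their contacts, and the transition accompanies their exit from pluripotency and the formation of mesoderm and endoderm.

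The libraries had similar depth, with totals between 35911384 and 37286251 counts. Dax1 counts were 456 and 300 in control cells and 0 and 0 in Dax1KO cells in 2i/LIF. In LIF/serum they were 5095 and 4689 in control cells and 14 and 6 in Dax1KO cells, so the labels and the targeted gene went together in every library. Each of 10 ESC markers, Pou5f1, Sox2 and Nanog among them, had at least 2808 counts in every library. Among 10 fibroblast markers, Fap had 0 counts in every library, Col3a1 at most 4, Dcn at most 3 and Twist2 at most 6, and 3 to 6 of the 10 were at 0 in each library. Thy1 (383 to 2188 counts), Pdgfrb (104 to 568) and Col1a1 (20 to 171) were present in every library. Lum and Postn were at 0 in the 4 libraries in LIF/serum and had 11 to 71 counts in those in 2i/LIF, and Col1a2 had 0 to 55. The summed level of the 10 was 47.1 to 67.1 CPM (counts scaled to a common library size) in the 4 libraries in 2i/LIF. In LIF/serum it was 15.9 and 17.2 CPM in control cells and 51.0 and 54.1 CPM in Dax1KO cells. Most of this sum was Thy1 in every library, so the sum mainly follows that 1 gene. The summed level of 10 endoderm markers was 328 to 390 CPM in 2i/LIF. In LIF/serum it was 1091 and 656 CPM in control cells and 2454 and 1898 CPM in Dax1KO cells, with none of the 10 at 0 in any library. The part of either marker list in the results for LIF/serum was not tested. On chromosome 6 the median log2 fold change of Dax1KO over control was 0.44 in 2i/LIF and 0.52 in LIF/serum over 1054 genes, whereas on the chromosomes that hold the 10 genes it lay between -0.06 and 0.04. None of the 10 genes is on chromosome 6, and the part of this shift in the results was not tested. In bulk RNA, a change in the share of cells of one type cannot be told apart from a change in RNA per cell.

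Across the 4 groups, the 10 genes covered a wide range of levels (see the plot of normalized counts by library). Compared per length, as counts scaled by exon length and library size (RPKM), the order in control cells in 2i/LIF was Cdh1 (166 ± 6.94, SD, n = 2), Fn1 (89.5 ± 5.79), Epcam (24.8 ± 4.14) and Vim (18.2 ± 1.18). The transcription factors Snai1 (3.62 ± 0.148), Twist1 (3.35 ± 0.657), Zeb1 (2.39 ± 0.452) and Snai2 (1.17 ± 0.250) followed, then Cdh2 (0.284 ± 0.0483) and Zeb2 (0.0212 ± 0.0126). Of the neighbours in this order, only Snai1 and Twist1 overlapped between libraries. Cdh1 was also first in each of the other 3 groups, with 154 ± 6.92 RPKM in Dax1KO cells in 2i/LIF, 114 ± 16.9 in control cells in LIF/serum and 104 ± 14.7 in Dax1KO cells in LIF/serum. Epcam stood above Fn1 in LIF/serum, with 85.4 ± 9.08 against 33.0 ± 7.82 RPKM in control cells and 73.6 ± 4.62 against 41.9 ± 3.83 RPKM in Dax1KO cells. Zeb2 was the lowest in all 4 groups, at most 0.152 RPKM in any library.

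**Figure D1:**
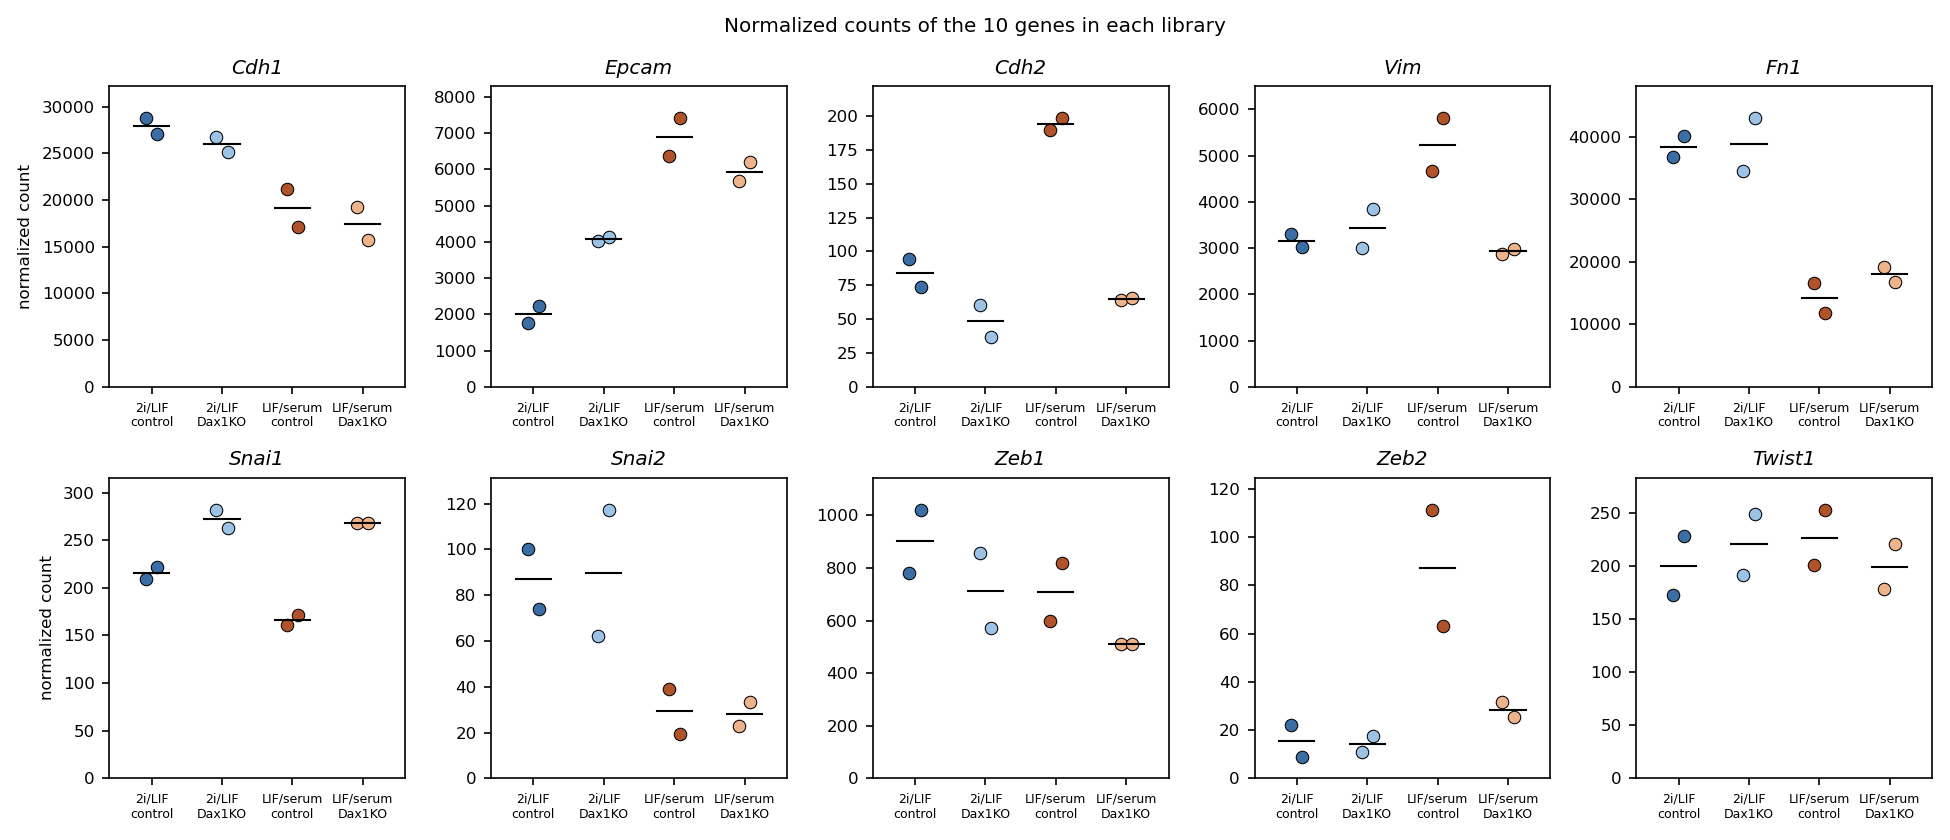
Normalized counts (linear axis from 0, a separate scale for each gene) of the 10 genes in the 8 libraries; points are libraries and the line is the mean of 2. Epcam was lowest in control cells in 2i/LIF, Cdh2 and Vim were highest in control cells in LIF/serum, and Snai1 was lowest in control cells in LIF/serum.

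With loss of Dax1, Epcam rose in 2i/LIF, and in LIF/serum Snai1 rose while Cdh2 and Vim fell. A gene was called where its fold change was 1.2 or more and its Benjamini-Hochberg adjusted P (edgeR's quasi-likelihood test) was 0.05 or less. In 2i/LIF, 1 of the 10 genes was called, where 3.16% of all 20749 genes tested were called, 1.51% higher and 1.65% lower. In LIF/serum 3 of 10 were called, 1 higher and 2 lower, against 14.7% of all genes, 8.87% higher and 5.78% lower. At an unadjusted P under 0.05, the genes numbered 2 in 2i/LIF (17.7% of all genes) and 4 in LIF/serum (30.5% of all genes). In normalized counts, the 2 Dax1KO libraries lay on one side of both control libraries for 4 of the 10 genes in 2i/LIF (51.8% of all genes) and for 7 of 10 in LIF/serum (57.5% of all genes). The median log2 fold change over the 10 genes was 0.03 in 2i/LIF and -0.20 in LIF/serum, beside -0.01 and 0.01 over all genes tested. These counts move with single libraries. No gene was called in 2i/LIF without control library 1 or without either Dax1KO library of that medium, and none in LIF/serum without Dax1KO library 1 or 2. In LIF/serum 1 gene was called without control library 2 and 2 genes were called without any one of the remaining 5 libraries.

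**Figure D2:**
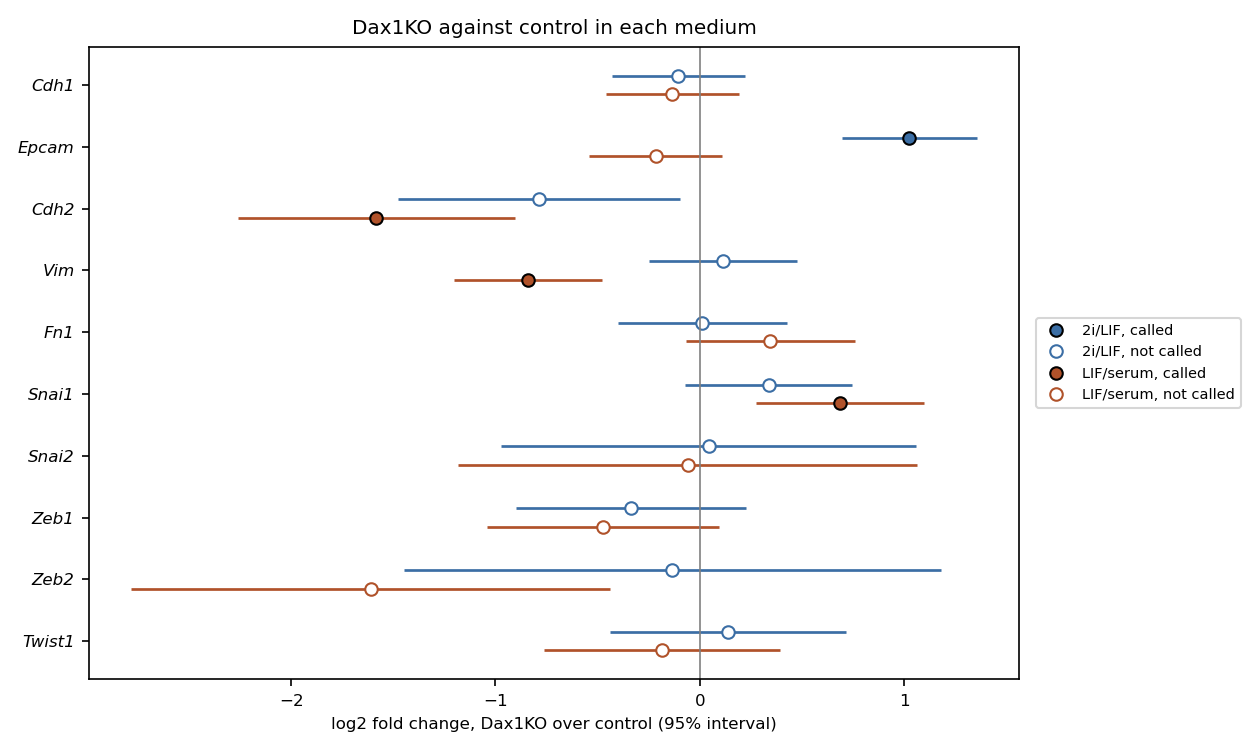
Log2 fold change of Dax1KO over control for each gene in 2i/LIF (blue) and LIF/serum (brown), with 95% intervals from the edgeR fit; filled points were called. Epcam in 2i/LIF and Snai1 in LIF/serum lie above 0, and Cdh2 and Vim in LIF/serum lie below 0.

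Between media, more of the genes moved, as did more of the transcriptome. In control cells 7 of the 10 genes were called, where 36.8% of all genes were called, 20.3% higher and 16.5% lower in 2i/LIF. Cdh1, Snai2 and Fn1 were higher in 2i/LIF, and Epcam, Cdh2, Vim and Zeb2 were lower. In Dax1KO cells 4 of 10 were called, against 28.9% of all genes, 15.2% higher and 13.7% lower in 2i/LIF. Cdh1, Snai2 and Fn1 were again higher in 2i/LIF and Epcam was lower. The libraries of the media did not overlap for 8 of the 10 genes in control cells (68.6% of all genes) and for 8 of 10 in Dax1KO cells (68.9% of all genes). The count in control cells was 3 genes without 2i/LIF control library 2, 5 without 2i/LIF control library 1 or LIF/serum control library 2, and 6 or 7 without any one of the others. In Dax1KO cells it was 1 gene without 2i/LIF or LIF/serum Dax1KO library 2, and 2 genes without either Dax1KO library 1. The effect of Dax1KO itself differed between media for 1 of the 10 genes, Epcam (adjusted P of the difference), where 2.87% of all genes were called, 2.05% with a higher and 0.824% with a lower effect in LIF/serum. At an unadjusted P under 0.05 the difference was seen for 2 of the 10 genes, Epcam and Vim, and for 19.1% of all genes. It was called for none of the 10 without any one of 2i/LIF control library 1, LIF/serum control library 2 and the 4 Dax1KO libraries.

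**Figure D3:**
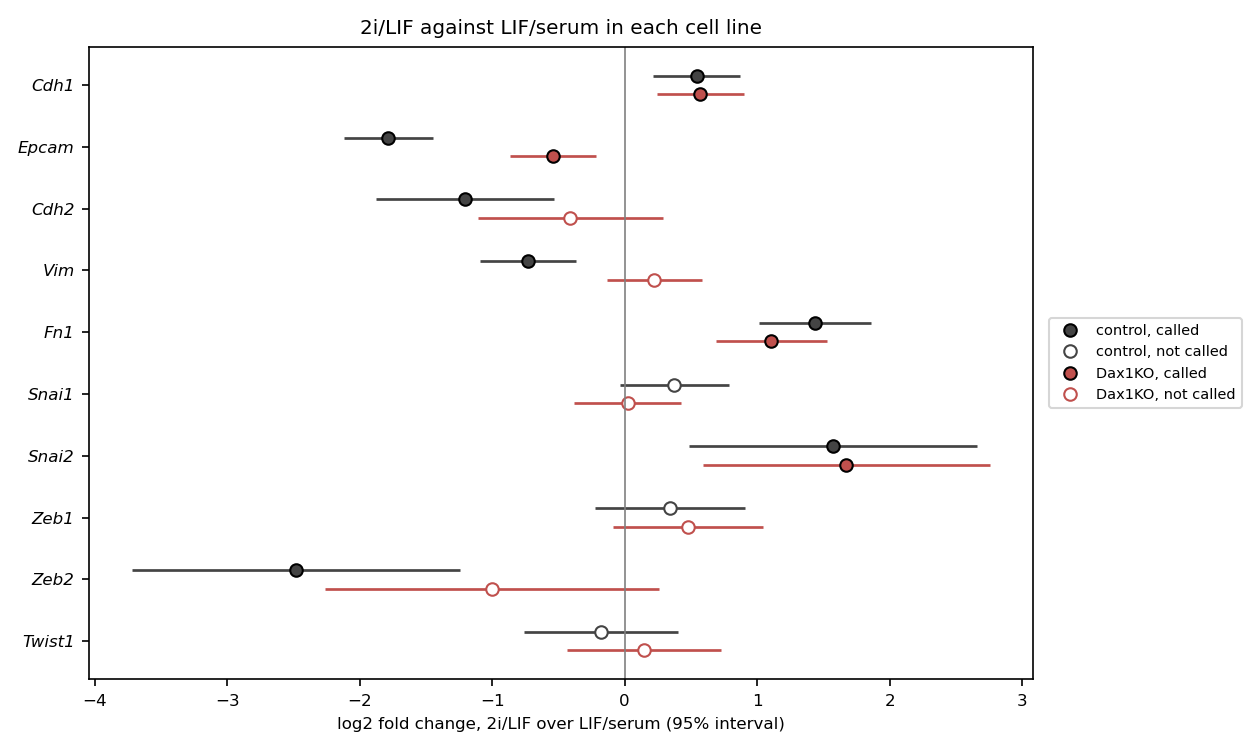
Log2 fold change of 2i/LIF over LIF/serum in control cells (grey) and Dax1KO cells (red), with 95% intervals from the edgeR fit; filled points were called. In both cell lines Cdh1, Snai2 and Fn1 lie above 0 and Epcam below 0, and in control cells Cdh2, Vim and Zeb2 also lie below 0.

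Cdh1 encodes E-cadherin, the adhesion molecule of epithelial and ESC contacts (chr8:106603351-106670246, plus strand, GRCm38). Its counts in 2i/LIF were 28687 and 27107 in control cells and 27529 and 25712 in Dax1KO cells. Those in LIF/serum were 19978 and 16091 in control cells and 20080 and 16119 in Dax1KO cells. All 4 libraries in 2i/LIF were above all 4 in LIF/serum, while control and Dax1KO libraries lay close together. Cdh1 was not called for Dax1KO in 2i/LIF (log2 fold change -0.11, 95% interval -0.43 to 0.22, adjusted P = 0.783) or in LIF/serum (-0.13, -0.46 to 0.19, adjusted P = 0.567). It was higher in 2i/LIF than in LIF/serum by a log2 fold change of 0.54 ± 0.14 (SE) in control cells (adjusted P = 0.0187) and 0.57 ± 0.14 in Dax1KO cells (adjusted P = 0.0192). In control cells that call was lost without 2i/LIF library 1, 2i/LIF library 2 or LIF/serum library 2 (adjusted P = 0.0851, 0.0735 and 0.0967). In Dax1KO cells it was lost without 2i/LIF library 1, 2i/LIF library 2 or LIF/serum library 2 (adjusted P = 0.107, 0.0760 and 0.117).

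Epcam, the epithelial cell adhesion molecule that is a common surface marker of undifferentiated ESCs, gave the only call in 2i/LIF. Its counts there were 1763 and 2239 in control cells and 4149 and 4215 in Dax1KO cells. The LIF/serum libraries had 6013 and 6947 in control cells and 5928 and 6357 in Dax1KO cells. The control libraries in 2i/LIF were the lowest pair, the Dax1KO libraries in 2i/LIF stood between, and all 4 libraries in LIF/serum were above both. Dax1KO raised Epcam 2.04-fold in 2i/LIF (log2 fold change 1.03 ± 0.14, adjusted P = 0.0152), from 2004 ± 334 to 4078 ± 59.6 normalized counts. In LIF/serum the log2 fold change was -0.22 (95% interval -0.54 to 0.11, adjusted P = 0.344). The effect in LIF/serum minus that in 2i/LIF was -1.24 ± 0.20 (adjusted P = 0.0258). Between media, Epcam was lower in 2i/LIF by 3.44-fold in control cells (log2 fold change -1.78 ± 0.15, adjusted P = 0.000102) and by 1.46-fold in Dax1KO cells (-0.54 ± 0.14, adjusted P = 0.0238).

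For Epcam, the call in 2i/LIF was lost without control library 1, Dax1KO library 1 or Dax1KO library 2 of that medium (adjusted P = 0.0761, 0.103 and 0.100), with log2 fold changes from 0.86 to 1.22 over all 8 omissions. The difference of the effect was called only without 2i/LIF control library 2 or LIF/serum control library 1, and the adjusted P reached 0.107 without 2i/LIF Dax1KO library 1. In Dax1KO cells the difference between media was lost without any one of the 4 Dax1KO libraries, with adjusted P up to 0.121 without 2i/LIF Dax1KO library 1. With no filter on low counts it was lost too (adjusted P = 0.0505, edgeR). In control cells the difference between media was called under every alternative.

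The 250 bases before the start of Epcam and of Snai1 are shown because these were the only 2 of the 10 genes called higher in Dax1KO cells and because Snail and Zeb factors bind the E-box CACCTG, which reads CAGGTG on the other strand. They come from RefSeq, build GRCm38.p6, are written 5′ to 3′ on the gene's strand, the plus strand for both, and end at the base before the start site. Capitals mark the E-box on either strand.
Epcam, chr17:87635729-87635978, plus strand: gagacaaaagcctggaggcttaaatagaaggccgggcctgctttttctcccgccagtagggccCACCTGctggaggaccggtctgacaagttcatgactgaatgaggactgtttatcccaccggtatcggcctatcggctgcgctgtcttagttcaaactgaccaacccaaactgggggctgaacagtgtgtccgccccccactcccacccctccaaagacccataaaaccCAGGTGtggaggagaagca
Snai1, chr2:167537945-167538194, plus strand: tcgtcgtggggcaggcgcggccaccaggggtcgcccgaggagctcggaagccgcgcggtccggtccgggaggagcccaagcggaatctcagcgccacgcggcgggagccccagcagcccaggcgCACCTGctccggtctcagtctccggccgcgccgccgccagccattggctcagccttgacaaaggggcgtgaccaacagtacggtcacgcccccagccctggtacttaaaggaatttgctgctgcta

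The Epcam window held 2 E-boxes, starting 187 and 19 bases before the start site, and the Snai1 window held 1, starting 126 bases before it. Of 32841 windows of 250 bases before RefSeq gene starts, 17.2% held at least 1 such E-box and 2.06% at least 2. The windows used for Twist1, Vim and the 4 starts of Zeb2 held none. The start site was 384 bases from the GENCODE gene start for Vim and 47 to 7118 bases from it for Zeb2. The set of windows read here held none for Cdh1, Cdh2, Fn1, Snai2 and Zeb1, so the promoter of Cdh1 could not be examined.

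Cdh2 encodes N-cadherin, the cadherin of mesenchymal and neural cells (chr18:16588877-16809246, minus strand), and had the largest called fold change of the 10 genes in Dax1KO against control cells. In LIF/serum its counts were 179 and 186 in control cells and 67 and 67 in Dax1KO cells. In 2i/LIF they were 94 and 74 in control cells and 62 and 38 in Dax1KO cells. Control libraries in LIF/serum stood above all others, and in both media the Dax1KO libraries were below the control libraries. In LIF/serum Cdh2 fell 3.00-fold, from 194 ± 6.12 to 64.7 ± 0.873 normalized counts (log2 fold change -1.58 ± 0.29, adjusted P = 0.0134). The call was lost without LIF/serum Dax1KO library 1 or 2 (adjusted P = 0.0636 and 0.0786), with log2 fold changes from -1.61 to -1.56 over all 8 omissions. In 2i/LIF the log2 fold change was -0.79 (95% interval -1.48 to -0.10, adjusted P = 0.219), which did not pass the adjusted threshold, and the difference of the effect between media was -0.80 (-1.76 to 0.17, adjusted P = 0.350). Both values moved with single Dax1KO libraries in 2i/LIF. The log2 fold change was -1.18 and the difference -0.40 without library 1, and they were -0.48 and -1.10 without library 2. Cdh2 was 2.30-fold lower in 2i/LIF than in LIF/serum in control cells (log2 fold change -1.20 ± 0.29, adjusted P = 0.0135), a call lost without 2i/LIF control library 2 (adjusted P = 0.0763). In Dax1KO cells the log2 fold change between media was -0.41 (-1.10 to 0.29, adjusted P = 0.360).

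The cadherins were set against each other as the ratio of Cdh1 to Cdh2 per exon length, a description with no test. In 2i/LIF the ratio was 538 and 646 in control cells and 783 and 1193 in Dax1KO cells. In LIF/serum it was 197 and 153 in control cells and 529 and 424 in Dax1KO cells. Dax1KO libraries lay above the control libraries in both media, and control cells in LIF/serum had the lowest ratio of the 4 groups. The corresponding ratio of Epcam to Vim was 1.15 and 1.60 in control cells and 2.90 and 2.32 in Dax1KO cells in 2i/LIF, and 2.95 and 2.76 in control cells and 4.26 and 4.49 in Dax1KO cells in LIF/serum. This ratio was higher in Dax1KO than in control libraries in each medium, and both ratios restate the changes of their single genes. The ratio of Snai1 to Snai2 was 2.61 and 3.74 in control cells and 5.65 and 2.79 in Dax1KO cells in 2i/LIF, and 5.12 and 11.2 against 14.5 and 10.1 in LIF/serum, so the groups overlapped in both media. That of Zeb1 to Zeb2 was 68.7 and 220.4 against 155 and 62.9 in 2i/LIF, where the groups overlapped, and 10.5 and 25.3 against 31.4 and 39.2 in LIF/serum, where they did not.

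**Figure D4:**
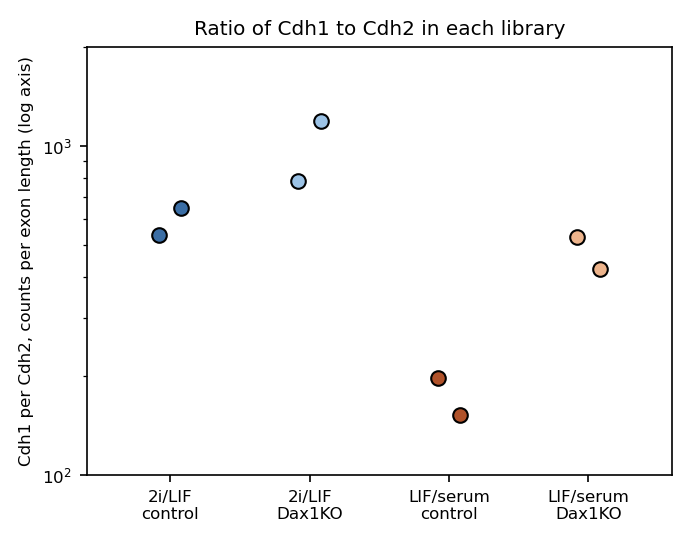
Ratio of Cdh1 to Cdh2 counts per exon length (log axis) in the 8 libraries, each point 1 library. The 2 control libraries in LIF/serum (197 and 153) sit below all others, and the 2 Dax1KO libraries in 2i/LIF (783 and 1193) sit above all others.

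Vim encodes vimentin, the intermediate filament protein of mesenchymal cells (chr2:13573927-13582826, plus strand). In LIF/serum its counts were 4407 and 5446 in control cells and 3004 and 3061 in Dax1KO cells. In 2i/LIF they were 3301 and 3018 in control cells and 3093 and 3929 in Dax1KO cells. The 2 control libraries in LIF/serum stood above the other 6, and in 2i/LIF the groups overlapped. Vim fell 1.79-fold in Dax1KO cells in LIF/serum, from 5240 ± 804 to 2929 ± 78.4 normalized counts (log2 fold change -0.84 ± 0.16, adjusted P = 0.0137). That call was lost without LIF/serum control library 2, Dax1KO library 1 or Dax1KO library 2 (adjusted P = 0.0525, 0.0697 and 0.0781). In 2i/LIF the log2 fold change was 0.11 (95% interval -0.25 to 0.47, adjusted P = 0.791). The difference of the effect between media, -0.95 ± 0.22, had an adjusted P of 0.0683 and was not called, while DESeq2 called it (-0.97, adjusted P = 0.00287). Vim was 1.66-fold lower in 2i/LIF than in LIF/serum in control cells (log2 fold change -0.73 ± 0.16, adjusted P = 0.00837), but not called without 2i/LIF control library 2 (adjusted P = 0.0510). In Dax1KO cells the value was 0.23 (-0.14 to 0.59, adjusted P = 0.328).

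Fn1 encodes fibronectin, a matrix glycoprotein that mesenchymal and endodermal cells secrete (chr1:71585520-71653200, minus strand). Its counts in 2i/LIF were 36596 and 40200 in control cells and 35571 and 43972 in Dax1KO cells. In LIF/serum they were 15619 and 11068 in control cells and 20038 and 17271 in Dax1KO cells. All libraries in 2i/LIF were above all libraries in LIF/serum, and within LIF/serum both Dax1KO libraries were above both control libraries. Fn1 was 2.71-fold higher in 2i/LIF in control cells (log2 fold change 1.44 ± 0.18, adjusted P = 0.000716) and 2.15-fold higher in Dax1KO cells (1.11 ± 0.18, adjusted P = 0.00322), both called under every alternative tried. For Dax1KO against control, the log2 fold change was 0.01 in 2i/LIF (95% interval -0.40 to 0.43, adjusted P = 0.993) and 0.34 in LIF/serum (-0.07 to 0.76, adjusted P = 0.237), neither of them called. Fn1 thus stood higher in the medium in which Vim and Cdh2 stood lower in control cells. An antisense gene, Apol7d, shares exon bases with Fn1, and whether strand was used in counting is not given in the sources used here.

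Snai1 encodes Snail, a zinc-finger repressor of Cdh1, and was the only one of the 5 transcription factors called in Dax1KO against control cells. In LIF/serum its counts were 152 and 161 in control cells and 280 and 275 in Dax1KO cells. In 2i/LIF they were 209 and 222 in control cells and 290 and 269 in Dax1KO cells. The Dax1KO libraries were above the control libraries in both media, and those of both media lay close together. Snai1 rose 1.61-fold in LIF/serum, from 166 ± 7.50 to 268 ± 0.201 normalized counts (log2 fold change 0.69 ± 0.18, adjusted P = 0.0392). That call was lost in the fit of the 4 LIF/serum libraries alone (adjusted P = 0.0954) and without any one of the 8 libraries, with adjusted P from 0.0562 without 2i/LIF control library 1 to 0.141 without LIF/serum Dax1KO library 2. In 2i/LIF the log2 fold change was 0.34 (95% interval -0.07 to 0.74, adjusted P = 0.379), and the difference of the effect between media was 0.35 (-0.23 to 0.93, adjusted P = 0.507). Between media it was 0.37 in control cells (-0.04 to 0.79, adjusted P = 0.137) and 0.02 in Dax1KO cells (-0.38 to 0.43, adjusted P = 0.938).

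Snai2 encodes Slug, the related Snail-family repressor (chr16:14705852-14709385, plus strand), and was present at low counts. In 2i/LIF these were 100 and 74 in control cells and 64 and 120 in Dax1KO cells. Those in LIF/serum were 37 and 18 in control cells and 24 and 34 in Dax1KO cells. All 4 libraries in 2i/LIF were above all 4 in LIF/serum, and control and Dax1KO libraries overlapped in each medium. Snai2 was 2.97-fold higher in 2i/LIF in control cells (log2 fold change 1.57 ± 0.47, adjusted P = 0.0320) and 3.19-fold higher in Dax1KO cells (1.67 ± 0.47, adjusted P = 0.0308). The first call was lost without 2i/LIF control library 1, 2i/LIF control library 2 or LIF/serum control library 2 (adjusted P = 0.130, 0.0678 and 0.149), with log2 fold changes between 1.121, without LIF/serum control library 2, and 2.18, without LIF/serum control library 1. The second was lost without 2i/LIF Dax1KO library 2, LIF/serum Dax1KO library 1 or LIF/serum Dax1KO library 2 (adjusted P = 0.199, 0.154 and 0.0776). Both calls were also lost with no filter on low counts (adjusted P = 0.0663 in control cells and 0.0675 in Dax1KO cells, edgeR). For Dax1KO, the log2 fold change of Snai2 was 0.04 in 2i/LIF (95% interval -0.98 to 1.06, adjusted P = 0.985). In LIF/serum it was -0.06 (-1.18 to 1.06, adjusted P = 0.961). These intervals reached changes of about 2-fold in either direction.

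Zeb1 encodes a zinc-finger and homeobox repressor of epithelial genes (chr18:5591860-5775467, plus strand). Its counts were 778 and 1021 in control cells and 879 and 583 in Dax1KO cells in 2i/LIF. The LIF/serum libraries had 566 and 769 in control cells and 534 and 525 in Dax1KO cells. The Dax1KO libraries in LIF/serum were the lowest pair, and in 2i/LIF the groups overlapped. Zeb1 passed no test. The log2 fold change for Dax1KO was -0.34 in 2i/LIF (95% interval -0.90 to 0.22, adjusted P = 0.550) and -0.47 in LIF/serum (-1.04 to 0.09, adjusted P = 0.236). That of 2i/LIF over LIF/serum was 0.34 in control cells (-0.22 to 0.91, adjusted P = 0.308) and 0.48 in Dax1KO cells (-0.09 to 1.04, adjusted P = 0.189). Gm10125, on the opposite strand, shares exon bases with Zeb1.

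Zeb2 encodes the second Zeb repressor (chr2:44983632-45117395, minus strand) and had the lowest level per length of the 10 genes. Its counts were 22 and 9 in control cells and 11 and 18 in Dax1KO cells in 2i/LIF. In LIF/serum they were 105 and 59 in control cells and 33 and 26 in Dax1KO cells. Control libraries in LIF/serum were the highest pair, Dax1KO libraries in LIF/serum came next, and the 4 libraries in 2i/LIF were lowest and overlapped. Zeb2 was 5.57-fold lower in 2i/LIF than in LIF/serum in control cells (log2 fold change -2.48 ± 0.54, adjusted P = 0.00855), a call lost without LIF/serum control library 1 (adjusted P = 0.0529). Over the 8 omissions the log2 fold change lay between -3.25, without 2i/LIF control library 1, and -2.01. In Dax1KO cells that value was -1.003 (95% interval -2.26 to 0.26, adjusted P = 0.214). For Dax1KO in LIF/serum, the log2 fold change of -1.61 ± 0.51 was as large as that of Cdh2 but did not pass the threshold (adjusted P = 0.0714). In 2i/LIF it was -0.13 (-1.45 to 1.18, adjusted P = 0.949), and the difference of the effect between media was -1.48 (-3.24 to 0.28, adjusted P = 0.345). Values of 3 were more frequent in the 8 count tables (11738) than values of 2 (7071) or 4 (3938), so a low count may not stand for that many separate fragments. Zeb2os and Gm27761 on the opposite strand and Mir5129 on the same strand share exon bases with Zeb2.

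Twist1 encodes a basic helix-loop-helix factor of mesoderm and mesenchyme (chr12:33957671-33959829, plus strand). Its counts were 172 and 228 in control cells and 197 and 255 in Dax1KO cells in 2i/LIF. Those in LIF/serum were 189 and 237 in control cells and 186 and 226 in Dax1KO cells. The groups overlapped in all 4 comparisons, and no test was passed. Its log2 fold change for Dax1KO was 0.14 in 2i/LIF (95% interval -0.44 to 0.72, adjusted P = 0.856) and -0.19 in LIF/serum (-0.76 to 0.39, adjusted P = 0.665). The values between media were -0.18 in control cells (-0.76 to 0.40, adjusted P = 0.617) and 0.15 in Dax1KO cells (-0.43 to 0.72, adjusted P = 0.710).

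Among all 11964 protein-coding genes with a mean of at least 100 counts, those whose log2 CPM followed Cdh1 most closely over the 8 libraries were Gpcpd1 and Nfe2l2, with Pearson's r of 0.989 and 0.987. Those nearest to Vim were Klhl21, Utp23, Ccnb1, Pdss1 and Rrp1, with r from 0.968 to 0.945. The 8 points fall into 4 groups, which both genes of a pair share.

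A list of 36 further epithelial genes, for tight junctions, desmosomes, keratins and epithelial regulators, was counted next. In Dax1KO cells in 2i/LIF, 8 rose, 1 fell and 27 did not pass the test, where 1.51% of all genes were called higher and 1.65% lower. Their median log2 fold change was 0.44 beside -0.01 over all genes. Cldn7, a tight junction claudin, had 393 and 471 counts in control cells and 1337 and 1243 in Dax1KO cells (log2 fold change 1.54 ± 0.17, adjusted P = 0.00809). Dsc2, a desmosomal cadherin, had 93 and 133 against 347 and 469 counts (1.81 ± 0.37, adjusted P = 0.0447). Cdh3, which encodes P-cadherin, had 1253 and 888 against 616 and 473 counts (-1.01 ± 0.21, adjusted P = 0.0438). These 3 were named because they were called and their libraries did not overlap, so the separation is no result (51.8% of all genes did not overlap). Over all genes, 656 were called by edgeR, 1455 by DESeq2 and 121 with no filter on low counts. For this list, the count of 9 called genes was 15 with DESeq2 and 2 with no filter. It fell to 0 without 2i/LIF control library 1 or Dax1KO library 1, 1 without 2i/LIF Dax1KO library 2, 2 without 2i/LIF control library 2, and 3 without either Dax1KO library in LIF/serum. It was 6 without either control library in LIF/serum. Cldn7 was called in all of these fits but those without 2i/LIF control library 1, Dax1KO library 1 or Dax1KO library 2 (adjusted P up to 0.0759), while Dsc2 kept its call in 2 and Cdh3 in 0 of the 8 fits.

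In LIF/serum, 4 of the 36 epithelial genes rose in Dax1KO cells (Cldn7, St14, Krt18 and Grhl3) and none fell, where 8.87% of all genes were called higher and 5.78% lower, so the share called was near that of all genes. The list's median was 0.30 beside 0.01. Cldn7 had 232 and 294 counts in control cells and 949 and 943 in Dax1KO cells (log2 fold change 1.71 ± 0.17, adjusted P = 0.00204). St14, which encodes the membrane protease matriptase, had 1502 and 1331 against 3633 and 3547 counts (1.203 ± 0.12, adjusted P = 0.00191). Both were called under every alternative. Of these 36 genes, the difference of the effect between media was called for 0 by edgeR (2.87% of all genes). At an unadjusted P under 0.05 it was seen for 11 (19.1% of all genes), and DESeq2 called 4 (1510 of all genes tested). Between media, 8 were higher and 17 lower in 2i/LIF in control cells (20.3% and 16.5% of all genes), and 7 were higher and 14 lower in Dax1KO cells (15.2% and 13.7% of all genes). These 21 calls in Dax1KO cells were 13 without 2i/LIF Dax1KO library 2. Esrp1, a splicing regulator of epithelial isoforms, had 199 and 252 counts in 2i/LIF and 1483 and 1258 in LIF/serum in control cells (log2 fold change -2.69 ± 0.30, adjusted P = 0.000410). Dsp, the desmosomal plaque protein desmoplakin, went the other way, with 2643 and 3607 against 1178 and 859 counts (1.53 ± 0.23, adjusted P = 0.00144).

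Of 34 further mesenchymal genes, for matrix proteins, their proteases and the contractile cytoskeleton, 28 were tested. In 2i/LIF 1 of them was called in Dax1KO cells, where 3.16% of all genes were called, so the share was near that of all genes. It was the collagen gene Col5a1, which fell from 1287 and 1163 to 669 and 828 counts (log2 fold change -0.75 ± 0.16, adjusted P = 0.0466). That call was lost in all 8 fits without a library (adjusted P up to 0.269). In LIF/serum 7 rose (Sparc, Mmp2, Bgn, Itgb3, Col1a1, Mmp9 and Col5a1), 3 fell (Myl9, Tagln and Ccn2) and 18 did not pass the test, where 8.87% of all genes were called higher and 5.78% lower. The median was 0.33 beside 0.01 over all genes, or 0.38 over the 27 genes not at 3 counts or fewer in both groups. Col1a1, a fibrillar collagen, had 20 and 43 counts in control cells and 171 and 134 in Dax1KO cells (2.13 ± 0.37, adjusted P = 0.0108). Bgn, the proteoglycan biglycan, had 44 and 40 against 146 and 190 (1.86 ± 0.51, adjusted P = 0.0453). Tagln, an actin-binding protein, had 141 and 156 counts in control cells and 62 and 71 in Dax1KO cells (-1.30 ± 0.27, adjusted P = 0.0184), and Myl9, a myosin light chain, had 176 and 235 against 79 and 70 (-1.60 ± 0.39, adjusted P = 0.0328).

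The 10 mesenchymal calls in LIF/serum became 4 without LIF/serum control library 1 or Dax1KO library 2 and 5 without LIF/serum control library 2 or Dax1KO library 1, and were 14 with DESeq2. Col1a1 was called under every alternative, whereas Bgn and Myl9 were lost without any one of the 4 libraries in LIF/serum (adjusted P up to 0.190 and 0.159). Tagln was lost without LIF/serum control library 2, Dax1KO library 1 or Dax1KO library 2 (adjusted P up to 0.0893). The effect of Dax1KO differed between media for Sparc (difference 1.33 ± 0.16, adjusted P = 0.0124) and Col5a1 (1.72 ± 0.22, adjusted P = 0.0139), both larger in LIF/serum, so for 2 of the 28 genes where 2.87% of all genes were called. Sparc, a matricellular glycoprotein that the endoderm also makes, had 12767 and 11630 counts in control cells and 11169 and 10611 in Dax1KO cells in 2i/LIF, and 12310 and 10427 against 27789 and 26782 in LIF/serum. Its call was lost without either 2i/LIF Dax1KO library (adjusted P up to 0.0709), and that of Col5a1 without 2i/LIF control library 2 or any one of the 4 Dax1KO libraries (adjusted P up to 0.0717). Between media, 10 of the 28 mesenchymal genes were higher and 7 lower in 2i/LIF in control cells, and 10 were higher and 8 lower in Dax1KO cells, where 36.8% and 28.9% of all genes were called. These 18 calls in Dax1KO cells were 11 without either 2i/LIF Dax1KO library or LIF/serum Dax1KO library 2.

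**Figure D5:**
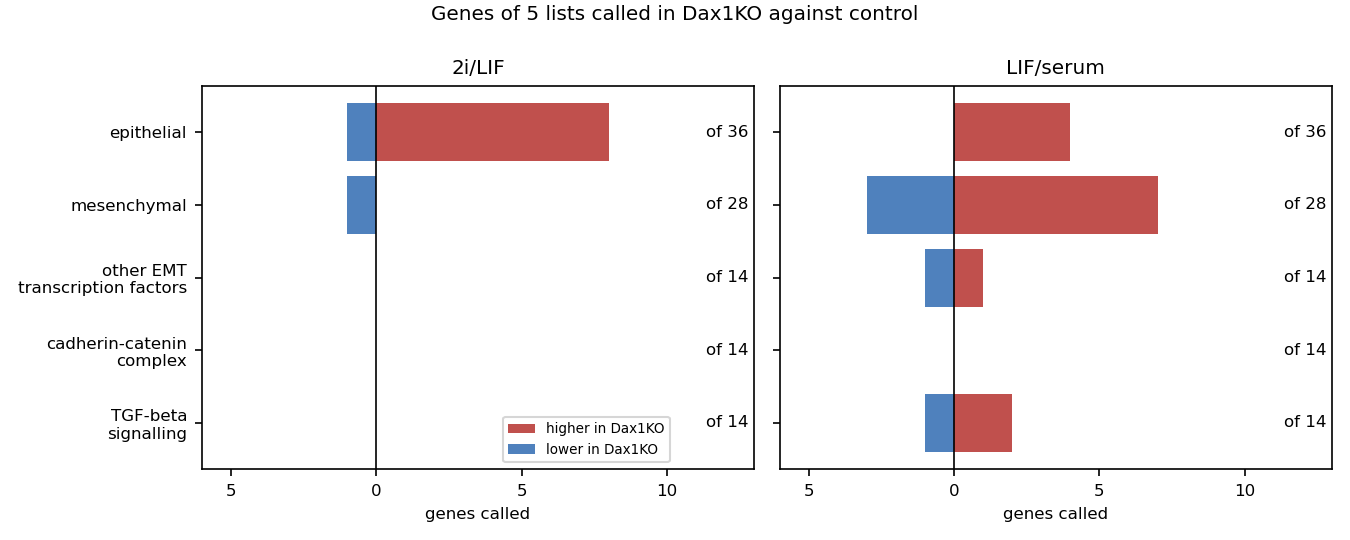
Number of genes of 5 lists called higher (red, to the right) or lower (blue, to the left) in Dax1KO against control for each medium, with the number tested at the right edge. Epithelial genes gave 8 higher and 1 lower in 2i/LIF and 4 higher in LIF/serum, and mesenchymal genes gave 1 lower in 2i/LIF and 7 higher and 3 lower in LIF/serum.

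Of 16 other transcription factors of the transition, 14 were tested. In 2i/LIF 0 were called for Dax1KO by edgeR (3.16% of all genes), and 3 had an unadjusted P under 0.05 (17.7% of all genes). DESeq2 called 1 of them, beside 1455 of all genes tested. In LIF/serum 2 were called, where 14.7% of all genes were, and that count was 1 without LIF/serum control library 1 or Dax1KO library 2 or with no filter on low counts. Eomes, a T-box factor of mesoderm and endoderm, rose from 243 and 325 to 592 and 700 counts (log2 fold change 1.05 ± 0.20, adjusted P = 0.0156). Id2, which encodes an inhibitor of basic helix-loop-helix factors, fell from 1064 and 1043 to 298 and 551 counts (-1.45 ± 0.30, adjusted P = 0.0183). Eomes was lost without LIF/serum control library 1 or Dax1KO library 2 (adjusted P up to 0.0972), and Id2 without LIF/serum control library 1, control library 2 or Dax1KO library 1 (adjusted P up to 0.0601). The list's median in LIF/serum was 0.47 beside 0.01. Between media, 6 were higher and 3 lower in 2i/LIF in control cells, and 5 were higher and 2 lower in Dax1KO cells, beside 36.8% and 28.9% of all genes called. The 7 calls in Dax1KO cells were 4 without 2i/LIF Dax1KO library 2, without LIF/serum Dax1KO library 1 or with no filter on low counts. Snai3, the third Snail gene, had 149 and 91 counts in 2i/LIF and 446 and 527 in LIF/serum in Dax1KO cells (log2 fold change -2.01 ± 0.27, adjusted P = 0.00120), opposite in sign to the change of Snai2 in the same comparison.

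Among the partners of the cadherins, no gene was called for Dax1KO by edgeR. Of 14 genes for catenins, nectins and other cadherins, 0 were called for Dax1KO in 2i/LIF by edgeR or DESeq2 and 5 at an unadjusted P under 0.05, where edgeR called 3.16% of all genes and 17.7% had such a P. In LIF/serum 0 were called by edgeR and 1 by DESeq2, and 3 had an unadjusted P under 0.05, beside 14.7% and 30.5% of all genes by edgeR. Without LIF/serum control library 2 or Dax1KO library 2, edgeR called 1. The list's medians were 0.03 and 0.12. In control cells 3 were higher in 2i/LIF (Ctnnd2, Nectin1 and Vcl) and 2 lower (Nectin2 and Cdh6), where 36.8% of all genes were called. Ctnnd2, which encodes a catenin of the p120 family, had 534 and 659 counts in 2i/LIF and 77 and 68 in LIF/serum (log2 fold change 2.95 ± 0.23, adjusted P = 8.38e-05).

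Transforming growth factor-beta signalling, an inducer of the transition, was represented by 15 genes, of which 14 were tested. In 2i/LIF 0 were called for Dax1KO by edgeR (3.16% of all genes), and 4 at an unadjusted P under 0.05 (17.7% of all genes). DESeq2 called 1, beside 1455 of all genes tested. In LIF/serum 3 of the 14 were called, where 14.7% of all genes were, and 1 was called without LIF/serum control library 1 or either LIF/serum Dax1KO library. The ligand gene Tgfb1 rose from 697 and 613 to 1631 and 1438 counts (log2 fold change 1.09 ± 0.16, adjusted P = 0.00617) and was called under every alternative. Tgfbr3, the co-receptor betaglycan, rose from 55 and 60 to 205 and 150 counts (1.48 ± 0.31, adjusted P = 0.0186), and Skil, a repressor of Smad activity, fell from 1866 and 1418 to 823 and 1161 counts (-0.86 ± 0.21, adjusted P = 0.0337). The call of Tgfbr3 was lost without any one of the 4 libraries in LIF/serum (adjusted P up to 0.0826), and that of Skil without any one of the 8 libraries but LIF/serum control library 2 (adjusted P up to 0.151). Skil was also not called in the fit of the 4 LIF/serum libraries alone or with no filter on low counts. The difference of the effect between media was called for Tgfbr3 (2.11 ± 0.42, adjusted P = 0.0437) and Eng (0.92 ± 0.19, adjusted P = 0.0488), the gene of the co-receptor endoglin, where 2.87% of all genes were called. Both calls were lost without any one of the 8 libraries (adjusted P up to 0.131 and 0.177). In control cells 5 of the 14 genes were higher and 2 lower in 2i/LIF, where 20.3% and 16.5% of all genes were. These 7 calls were 3 without 2i/LIF control library 1 and 4 without 2i/LIF control library 2 or LIF/serum control library 2. In Dax1KO cells 2 were higher and 5 lower, where 15.2% and 13.7% of all genes were. Here the 7 calls were 2 without 2i/LIF Dax1KO library 2 and 4 without 2i/LIF or LIF/serum Dax1KO library 1. The difference between the counts of the cell lines was not tested.

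Markers of other lineages were counted beside these results. Of 10 endoderm markers, 1 rose in Dax1KO cells in 2i/LIF (Dab2) and 7 rose in LIF/serum, where 1.51% and 8.87% of all genes were called higher. The median log2 fold change was -0.22 in 2i/LIF and 1.41 in LIF/serum, and 4 rather than 7 were called without LIF/serum control library 2, Dax1KO library 1 or Dax1KO library 2, or with no filter on low counts. Col4a1, a basement membrane collagen of the endoderm, had 12565 and 5591 counts in control cells and 38655 and 30420 in Dax1KO cells in LIF/serum (1.79 ± 0.35, adjusted P = 0.0163), a call lost without either Dax1KO library in LIF/serum (adjusted P up to 0.0678). The call of Dab2 in 2i/LIF (1.28 ± 0.26, adjusted P = 0.0423) was lost without any one of the 4 libraries in 2i/LIF or either Dax1KO library in LIF/serum (adjusted P up to 0.227). Of 8 markers of primitive streak and mesoderm, Hand1 and Eomes rose in LIF/serum, where 8.87% of all genes were called higher, and 1 rather than 2 was called without LIF/serum control library 1 or Dax1KO library 2. In 2i/LIF 0 of the 8 were called by edgeR or DESeq2 and 2 at an unadjusted P under 0.05, beside 3.16% and 17.7% of all genes by edgeR. Of 7 epiblast markers, 0 were called in LIF/serum by edgeR, DESeq2 or an unadjusted P under 0.05, where edgeR called 14.7% of all genes and 30.5% had such a P. In 2i/LIF edgeR called 0 of the 7 (3.16% of all genes) and DESeq2 called 2 (1455 of all genes tested). At an unadjusted P under 0.05 there were 4 (17.7% of all genes). Of the 10 fibroblast markers, 6 were tested. In LIF/serum 3 rose and 0 fell, where 8.87% and 5.78% of all genes were called higher and lower. In 2i/LIF 1 rose and 1 fell, where 1.51% and 1.65% were. Pdgfrb, a growth factor receptor gene, rose from 115 and 137 to 391 and 568 counts in LIF/serum (1.79 ± 0.27, adjusted P = 0.00647). It also rose from 146 and 104 to 429 and 472 counts in 2i/LIF (1.81 ± 0.27, adjusted P = 0.0167). The call in 2i/LIF was lost without any one of the 4 libraries of that medium (adjusted P up to 0.103). Thy1, a surface glycoprotein of fibroblasts and other cells, moved in opposite directions in the media. Its counts fell from 1721 and 2188 to 1122 and 1111 in 2i/LIF (-0.85 ± 0.15, adjusted P = 0.0271) and rose from 390 and 383 to 1346 and 1282 in LIF/serum. The call in 2i/LIF was lost without 2i/LIF control library 2 or any one of the 4 Dax1KO libraries (adjusted P up to 0.178). It was also lost in the fit of the 4 libraries in 2i/LIF alone and with no filter on low counts. The difference of the effect on Thy1 between media was 2.47 ± 0.21 (adjusted P = 0.00364), called under every alternative tried.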

How the data were processed

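The authors deposited whole-number counts per gene for each of 8 libraries, without normalization. The submitters' processing notes name HISAT2 2.0.4, the build mm10 and DESeq2. The counting method and annotation are not given in the sources used here. Libraries were grouped by their sample titles. Symbols, exon lengths (union over transcripts) and coordinates came from GENCODE M21 (GRCm38), in which 52403 of 52550 identifiers were found, 49035 with the same version.

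The test was run in edgeR 4.0.16 under R 4.3.3, with filterByExpr (20749 genes kept), TMM scaling, a quasi-likelihood fit with 4 group means, and Benjamini-Hochberg adjustment over all genes tested. A call needed a fold change of 1.2 or more and an adjusted P of 0.05 or less (for the difference between media, the adjusted P alone). Total counts lay between 35911384 and 37286251, and the common biological variation of the fit was 20.9%. A normalized count is the count over the TMM-scaled library size, times the mean of these sizes. Intervals are 95% intervals of the fit. Replicates of a group differed by more than sampling noise (chi-square per gene from 20.3 to 53.9).

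The 10 genes, the gene lists and the tests were chosen with earlier results of these data known. For the genes that follow Cdh1 most closely, the 2 nearest are given, and the rest of the nearest 5 are not reported here. Genes named from a list were at most the 2 largest increases and the 2 largest decreases called in a comparison without overlap of libraries, and others, named to list the members of a count, were taken after their values were seen. A search with blastn 2.17.0 at 95% identity found at most 2.99% of the transcript of any of the 10 genes in another gene. The fit was tested on simulated data. Of 100 genes changed by a log2 fold change of 1 among 20108 genes, 56% were recovered in 2i/LIF, and of 100 among 20122 genes, 58% in LIF/serum, with 4 false calls of 154 and 11 of 165. For a log2 fold change of 2, the shares were 94% and 96%. Changes were planted only in genes above a minimum mean count, and the spread followed the fitted trend without differences between genes. The shares therefore do not cover low genes such as Zeb2 or genes that vary more than the trend. Alternatives were DESeq2 1.42.0, RLE factors, no filter, at least 10 counts in every library, the replicate number as a block, only the 4 libraries compared, an unadjusted P under 0.05, a fold change of at least 2, a prior count of 0.5 for the ratios, and each library left out in turn, in which a group with 1 library left is assumed to vary like the others. Start-site windows were read from RefSeq GRCm38.p6.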

Additional observations from a re-analysis of the deposited data

Results flagged for a closer look

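Epcam stood out because the effect of Dax1KO on it differed between the media by a test of the difference itself. The log2 fold change of Dax1KO over control in LIF/serum minus that in 2i/LIF was -1.24 (SE 0.20, 95% interval -1.70 to -0.78, adjusted P = 0.0258, edgeR's quasi-likelihood test). In normalized counts, both Dax1KO libraries were above both control libraries in 2i/LIF (4036 and 4120 against 1768 and 2240), and both were below in LIF/serum (5671 and 6198 against 6374 and 7410), where the effect itself was not called. Of all genes tested, 2.87% had such a difference. Over the fits without 1 library, the value lay between -1.45 and -1.08 and was called in 2 of 8.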

How the results depend on the processing

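Over the 10 genes and 5 comparisons, 691 of the alternative fold changes kept their direction and side of the threshold, 53 lost the call, 5 gained it and 26 changed sign. Without 1 library, the sign changed for log2 fold changes near 0. For Dax1KO in 2i/LIF, these ranged from -0.073 to 0.28 (Vim), -0.48 to 0.43 (Snai2), -0.62 to 0.64 (Zeb2), -0.063 to 0.37 (Twist1) and -0.15 to 0.16 (Fn1). For Dax1KO in LIF/serum, they ranged from -0.29 to 0.025 (Cdh1) and -0.49 to 0.54 (Snai2). Between media, they ranged from -0.44 to 0.014 (Twist1) in control cells and from -0.027 to 0.075 (Snai1) and -0.054 to 0.32 (Twist1) in Dax1KO cells. The difference of the effect ranged from -0.18 to 0.13 (Cdh1), -0.54 to 0.50 (Snai2) and -0.40 to 0.19 (Zeb1).

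In 2i/LIF, 656 genes were called for Dax1KO, against 3682 at an unadjusted P under 0.05, 408 with the fold threshold raised to 2, 1455 with DESeq2, 121 with no filter and 38 to 673 without 1 library. Of the 10 genes, 2 were called at an unadjusted P, 0 with no filter (Epcam, log2 fold change 1.02, adjusted P = 0.0525) and 0 to 1 without 1 library. In LIF/serum, 3041 genes were called, against 6335 at an unadjusted P, 1420 at that higher fold threshold, 1842 with no filter, 1743 from the 4 libraries alone and 728 to 2496 without 1 library. Of the 10 genes, 1 was called at the higher fold threshold and 0 to 2 without 1 library. Between media, 7641 genes in control cells became 4535 and 5999 in Dax1KO cells became 3580 at the higher fold threshold, and the counts were 5057 to 7120 and 2986 to 6286 without 1 library. Of the 10 genes, 3 to 7 in control cells and 1 to 4 in Dax1KO cells were called without 1 library, and 2 in Dax1KO cells at the higher fold threshold or with no filter. The difference of the effect was called for 596 genes, against 3970 at an unadjusted P, 1510 with DESeq2, 119 with no filter and 36 to 344 without 1 library. Of the 10 genes it was called for 2 at an unadjusted P, with DESeq2 or with at least 10 counts in every library, for 0 with no filter and for 0 to 1 without 1 library. Fewer samples or a higher threshold shaped the fits without a library and at the higher fold threshold, and for the others the cause was not tested.

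The libraries of the groups share only a replicate number, and same-numbered libraries deviated together weakly (correlations from -0.015 to 0.108). The replicate block changed no call of the 10 genes. Of the list genes named with a value, it ended the calls of Dsc2, Col5a1 and Dab2 for Dax1KO in 2i/LIF and of Tgfbr3 for the difference of the effect. It called 573 genes for Dax1KO in 2i/LIF and 3218 in LIF/serum, 7754 between media in control and 6075 in Dax1KO cells, and 552 for the difference. Snai2 and Zeb2 had the widest 95% intervals of the 10 genes, at low counts.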
